A study of Medicago truncatula with 6 samples.

Results

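The genes described here are the PHR family of MYB-CC transcription factors measured in mycorrhizal roots of the legume Medicago truncatula, in which arbuscular fungi live inside root cells and hand phosphate to the plant. They are 6 of the 54762 loci counted, taken by gene identifier from the loci annotated as PHOSPHATE STARVATION RESPONSE 1 (PHR1), PHR1-LIKE (PHL) or MYB-CC proteins. All 6 had enough counts to be tested. The same annotation words picked out 8 loci that hold a MYB-CC domain, and the other 2, MTR_1g087470 and MTR_5g019390, had no counts in any library.

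RNA sequencing compared 3 libraries of wild-type R108 with 3 libraries of the Mtphr2 mutant, which the labels place in the same R108 line. All roots were mycorrhizal. For the fungus, the phosphate supply, the plant age and the mutant allele, nothing is stated in the labels. They do not name the locus mutated in Mtphr2 either, so no member could serve as a check of the genotype labels. Replicates of each genotype carry the label technical, and p-values therefore measure only the spread between these libraries.

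PHR proteins carry a MYB repeat that binds DNA and a coiled-coil stretch, the MYB-CC domain, through which they pair. In Arabidopsis and rice they switch on phosphate starvation genes when phosphate is scarce. When phosphate is plentiful, SPX proteins bound to inositol pyrophosphates hold them off their targets. In rice, PHR proteins also promote the expression of genes of the mycorrhizal symbiosis.

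Estimated counts per library summed to between 18199040 and 21477169. Arbuscules are the branched fungal structures inside root cells. Transcripts of 4 arbuscule marker genes, PT4, RAM1, MYB1 and SWEET1b, were at unequal levels, and arbuscules themselves were not counted here. The summed level of these 4 was 3207, 1488 and 776 CPM (counts scaled to a common library size, with TMM factors) in R108 replicates 1, 2 and 3. It was 699.8, 53.3 and 135 CPM in Mtphr2 replicates 1, 2 and 3, and none of the 4 was at 0 in any library. All 7 Casparian strip genes, which mark the root endodermis, had counts, and they summed to 109 to 329 CPM in R108 and 142 to 177 CPM in Mtphr2. Leghemoglobins of the nodule summed to at most 11.6 CPM. Leaf photosynthesis genes, 25 of 33 with counts, summed to 128 to 196 CPM in R108 and 123 to 207 CPM in Mtphr2. In such whole-root samples, fewer cells of a type and less RNA per cell cannot be told apart.

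In the Mtphr2 roots, levels of both PHR1-LIKE 1 genes were higher than in R108, the PHR1 gene and both PHR1-LIKE 2 genes overlapped between genotypes, and a short MYB-CC locus was lower. With edgeR's quasi-likelihood test and Benjamini-Hochberg adjustment over 22663 loci, 0 of the 6 members passed at 0.05, where 0.0794% of all tested loci passed. DESeq2 called 2 of the 6, against 5.73% of all tested loci, and limma-voom called 0, against 0.137%. With the replicate number as a term in edgeR's model, 0 of the 6 passed, against 0.335%. An unadjusted p under 0.05 by edgeR was found for 3 members, against 16.4% of all tested loci. Of these 2 were higher in Mtphr2, as were 8.01% of all tested loci, and 1 was lower, as were 8.41%. In the same 3 members the genotypes did not overlap, as in 22.2% of all tested loci, 11.6% higher and 10.6% lower. Of the 6, 3 had positive and 3 negative log2 fold changes, with a median of 0.018 beside 0.017 for all tested loci.

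MTR_7g098250 is the member whose closest Swiss-Prot entry is PHR1 of Arabidopsis, the founding regulator of the phosphate starvation response. Its levels were 89.3, 80.3 and 83.0 CPM in the R108 libraries and 94.2, 85.0 and 97.3 CPM in the Mtphr2 libraries, each in the order of replicates 1, 2 and 3. The genotypes overlapped, since R108 replicate 1 lay above Mtphr2 replicate 2. Between libraries of the same number, log2 differences were 0.08, 0.08 and 0.23, higher in Mtphr2 in 3 of 3, but these numbers do not establish pairing. The fitted ratio of Mtphr2 to R108 was 1.09-fold with a 95% interval of 0.943 to 1.27 (edgeR adjusted p = 0.507). The interval includes no change, so neither a rise nor a drop was resolved, and it reflects only the spread between these libraries.

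MTR_7g115530 has PHR1-LIKE 1 as its closest entry, a factor that shares much of PHR1's work in Arabidopsis. It had 60.8, 60.4 and 49.5 CPM in the R108 libraries. Every Mtphr2 library was above these, at 84.3, 79.6 and 75.04 CPM. The means were 56.9 ± 6.42 and 79.7 ± 4.64 CPM (SD, n = 3 each). The ratio of Mtphr2 to R108 was 1.40-fold, with a 95% interval of 1.17 to 1.68 and a log2 fold change of 0.49 (SE 0.11). The gene did not pass edgeR's test (adjusted p = 0.180), ranking 461 of 22663 by unadjusted p, and it passed in DESeq2 (adjusted p = 0.0181). Between libraries of the same number, log2 differences were 0.47, 0.40 and 0.60, whose shared sign follows from the lack of overlap. With 1 library left out the log2 fold change ran from 0.38 to 0.54.

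MTR_1g080330, the other member closest to PHR1-LIKE 1, showed a smaller difference in the same direction. Its levels were 30.7, 34.7 and 31.0 CPM in R108 and 39.6, 38.0 and 37.8 CPM in Mtphr2, without overlap. The Mtphr2 libraries lay close together, within 1.05-fold of each other, and the R108 libraries within 1.13-fold. The ratio of Mtphr2 to R108 was 1.20-fold, with a 95% interval of 1.03 to 1.39 (edgeR adjusted p = 0.266, DESeq2 adjusted p = 0.218). Its unadjusted p of 0.0272 stayed under 0.05 in only 1 of the 6 fits that left out a library, the fit without R108 replicate 2.

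**Figure D1:**
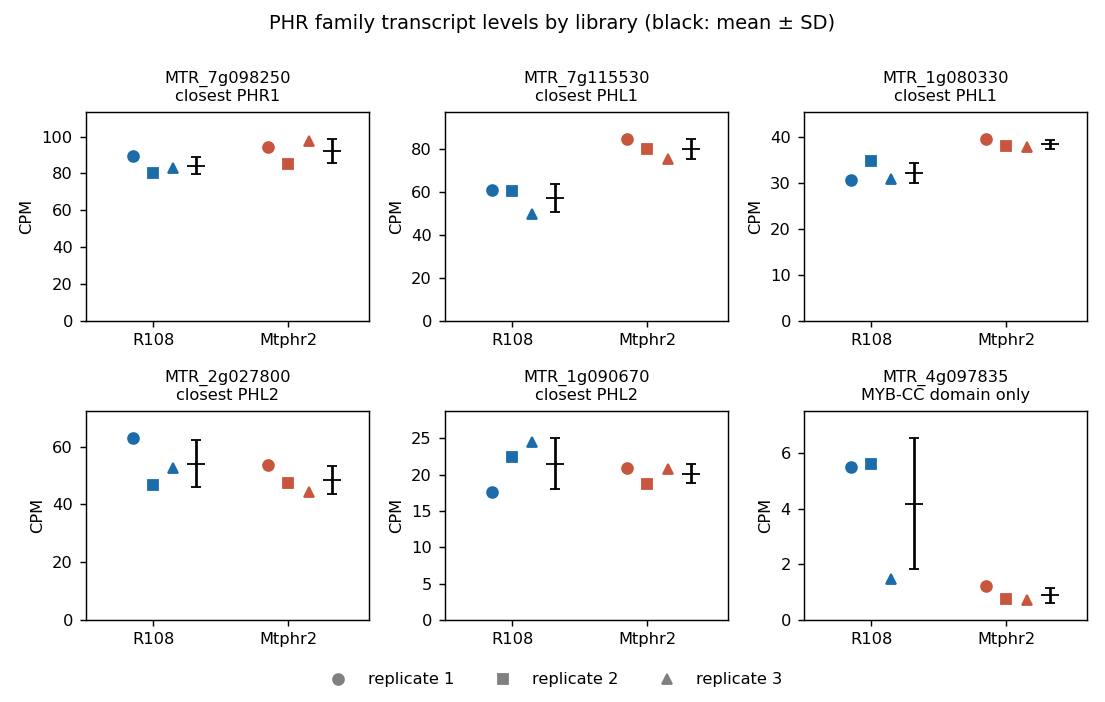
Transcript levels of the 6 PHR family genes in CPM (vertical axis, from 0) in R108 (blue) and Mtphr2 (red), with a symbol per replicate and black bars for the mean ± SD. The Mtphr2 points lie above all R108 points for MTR_7g115530 and MTR_1g080330 and below them for MTR_4g097835, where R108 replicate 3 sits at 1.46 CPM, near the Mtphr2 points.

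The members closest to PHR1-LIKE 2, which acts beside PHR1 and PHR1-LIKE 1 in Arabidopsis, did not separate the genotypes. MTR_2g027800 had 62.9, 46.8 and 52.7 CPM in R108 and 53.8, 47.5 and 44.1 CPM in Mtphr2, and R108 replicate 2 lay below 2 of the 3 Mtphr2 libraries. Its Mtphr2 to R108 ratio was 0.895-fold, with a 95% interval of 0.711 to 1.13 (edgeR adjusted p = 0.602). MTR_1g090670, named PHR1-LIKE 3 in the protein database match of the deposited table, had 17.6, 22.5 and 24.4 CPM in R108 and 20.98, 18.7 and 20.8 CPM in Mtphr2. All 3 Mtphr2 values fell inside the range of the R108 values. The Mtphr2 to R108 ratio was 0.937-fold, with a 95% interval of 0.734 to 1.19 (edgeR adjusted p = 0.785). Its differences between libraries of the same number had both signs, at 0.25, -0.26 and -0.23 on the log2 scale.

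MTR_4g097835 differs in structure from the other 5 members. Its deposited length is 156 bases, it carries the MYB-CC domain but no MYB repeat in the deposited annotation, and it has no Swiss-Prot match. Its estimated counts were 101, 109 and 27 in R108 and 24, 16 and 15 in Mtphr2, so it is also the least precisely measured member. These correspond to 5.48, 5.59 and 1.46 CPM against 1.20, 0.737 and 0.714 CPM. The genotypes did not overlap, but R108 replicate 3 lay closer to the Mtphr2 libraries than to the other R108 libraries. The fitted level was 4.71-fold lower in Mtphr2, a log2 fold change of -2.23 (SE 0.56, edgeR adjusted p = 0.199), and DESeq2 called it (adjusted p = 0.0101). Limma-voom gave an adjusted p of 0.277. Within libraries of the same number the log2 differences were -2.10, -2.76 and -0.94. The 4 arbuscule markers were also higher in R108 replicates 1 and 2 than in all other libraries, with a mean log2(CPM + 0.5) of 8.37 and 7.21 there and 3.01 to 6.11 elsewhere, and their part in this difference was not tested.

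Levels can be set beside each other between genes only per length, here as CPM per kilobase of the deposited locus length. How that length was derived is not stated, and the order below rests on it. Undivided R108 means ordered otherwise, at 84.2 CPM for MTR_7g098250, 56.9 CPM for MTR_7g115530 and 54.1 CPM for MTR_2g027800. In R108, MTR_2g027800 was highest of the 5 members with a MYB repeat at 32.6 ± 4.89 CPM per kilobase. It was followed by MTR_7g098250 at 24.9 ± 1.36, MTR_7g115530 at 20.3 ± 2.30, MTR_1g090670 at 16.6 ± 2.70 and MTR_1g080330 at 11.3 ± 0.785 CPM per kilobase (SD, n = 3). Neighbours in this order did not overlap between libraries, except MTR_7g115530 and MTR_1g090670, whose values did. In Mtphr2, MTR_2g027800 at 29.2 ± 2.95, MTR_7g115530 at 28.5 ± 1.66 and MTR_7g098250 at 27.3 ± 1.89 CPM per kilobase overlapped with each other. Below them, MTR_1g090670 at 15.6 ± 0.974 and MTR_1g080330 at 13.5 ± 0.334 CPM per kilobase were separate from each other and from those 3. MTR_4g097835 came to 26.8 ± 15.1 and 5.67 ± 1.78 CPM per kilobase, values that rest on its 156 bases.

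**Figure D2:**
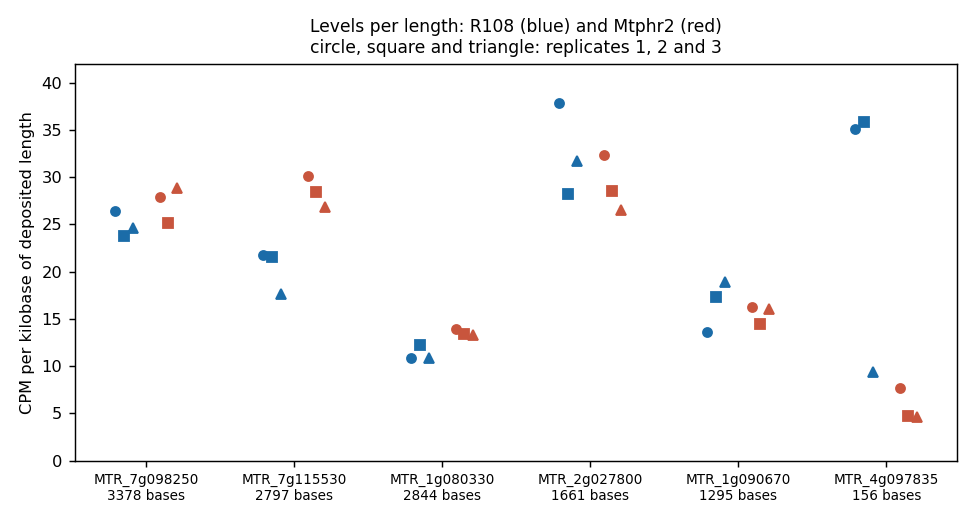
Levels of the 6 genes in CPM per kilobase of deposited length (vertical axis, from 0), with R108 in blue, Mtphr2 in red and a symbol per replicate. MTR_2g027800, MTR_7g098250 and MTR_7g115530 are ordered in R108, with means of 32.6, 24.9 and 20.3, and overlap in Mtphr2, with means of 29.2, 27.3 and 28.5.

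By these per-length levels, MTR_7g115530 held a larger share of the family in Mtphr2 and MTR_2g027800 a smaller one. The share of MTR_7g115530 in the summed level of the 5 members was 19.7%, 20.9% and 17.05% in the R108 libraries and 25.02%, 25.9% and 24.1% in the Mtphr2 libraries, with no overlap. The share of the PHR1 gene MTR_7g098250 was 23.6% ± 0.445 in R108 and 23.9% ± 1.64 in Mtphr2. The share of MTR_2g027800 was 34.3%, 27.3% and 30.6% in R108 and 26.9%, 26.0% and 23.8% in Mtphr2, also without overlap. The summed level itself was 106 ± 4.07 in R108 and 114 ± 5.67 CPM per kilobase in Mtphr2, and it overlapped between genotypes. It was higher in Mtphr2 within each replicate number, but these numbers do not establish pairing. Without division by length, the 5 members summed to 261, 245 and 241 CPM in R108 and 293, 269 and 275 CPM in Mtphr2, with no overlap. Longer genes weigh more in that sum.

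Ratios between members within a library do not depend on how libraries are scaled. The ratio of MTR_7g115530 to MTR_7g098250, per length, was 0.822, 0.907 and 0.720 in R108 and 1.08, 1.13 and 0.931 in Mtphr2. That of MTR_7g115530 to MTR_2g027800 was 0.574, 0.766 and 0.558 in R108 and 0.932, 0.996 and 1.01 in Mtphr2. The ratio between both PHR1-LIKE 1 genes, MTR_7g115530 over MTR_1g080330, was 2.01, 1.77 and 1.62 in R108 and 2.17, 2.13 and 2.02 in Mtphr2. Each of these 3 ratios was higher in all Mtphr2 libraries. All 3 have MTR_7g115530 as numerator, so they share its difference and are not separate results. An exact two-sided permutation test gave p = 0.1 for each, the smallest that 3 against 3 libraries allow. No ratio could therefore pass 0.05 in this test. Ratios of other member pairs, or of other genes, were not computed. Of the 5 ratios computed, the other two overlapped (p = 0.3 for MTR_1g080330 to MTR_7g098250 and p = 0.9 for MTR_2g027800 to MTR_1g090670, exact permutation tests). The ratio of MTR_1g080330 to MTR_7g098250 was higher in Mtphr2 within each replicate number, at 0.409, 0.513 and 0.443 in R108 and 0.499, 0.531 and 0.461 in Mtphr2. The permutations did not keep the replicate numbers together, and these numbers do not establish pairing. After Benjamini-Hochberg adjustment over the 5, the exact permutation p-values were 0.167, 0.375 and 0.9.

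The MYB-CC domain was annotated in 21 loci, of which 15 are not among the PHR family genes above. Using this domain to set the family's bounds was a choice made after the data were examined. Of the 15, 11 were tested and 4 were not, with at most 2 counts in a library. The 11 include genes closest to PHL7, PHL8, PHL11, IPN2 and MYR2, for which log2 fold changes ran from -0.37 to 0.29. Genotypes did not overlap in 4 of the 11, all lower in Mtphr2, where 10.6% of all tested loci were lower without overlap. By edgeR 0 of the 11 passed and 2 had an unadjusted p under 0.05, both lower, where 8.41% of all tested loci were lower at that p. DESeq2 called the same 2 genes, where it called 2.96% of all tested loci lower.

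Both are among the 3 tested loci closest to PHL5. MTR_1g053835 had 28.1, 30.7 and 27.8 CPM in R108 and 19.7, 17.3 and 15.3 CPM in Mtphr2, a log2 fold change of -0.72 (SE 0.12, edgeR adjusted p = 0.134, DESeq2 adjusted p = 2.29e-04). MTR_7g093030 had 43.4, 32.3 and 20.3 CPM in R108 and 13.2, 13.1 and 10.9 CPM in Mtphr2, a log2 fold change of -1.37 (SE 0.28, edgeR adjusted p = 0.153, DESeq2 adjusted p = 6.21e-04). Both were without overlap, and the R108 libraries of MTR_1g053835 lay close together while those of MTR_7g093030 spanned 2.14-fold. The remaining PHL5-like locus is MYB1 (MTR_7g068600), a factor of arbuscule degeneration, with a log2 fold change of -2.88 and an edgeR adjusted p of 0.320. Its Mtphr2 libraries, at 257, 6.82 and 36.9 CPM, spanned 37.7-fold, and its log2 fold change ran from -5.08 without Mtphr2 replicate 1 to -2.18 without R108 replicate 1. At 739 ± 508 CPM per kilobase in R108 it was the most abundant of the 21 loci, and MTR_2g027800 was next at 32.6 ± 4.89. MYB1 is itself 1 of the 4 arbuscule markers. The summed markers ran from 776 to 3207 CPM across the R108 libraries, where MTR_1g053835 stayed within 1.11-fold. MTR_7g093030 was, like the markers, highest in R108 replicate 1 and lowest in R108 replicate 3 within R108. The part of the markers in the differences of MTR_1g053835 and MTR_7g093030 was not tested.

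**Figure D3:**
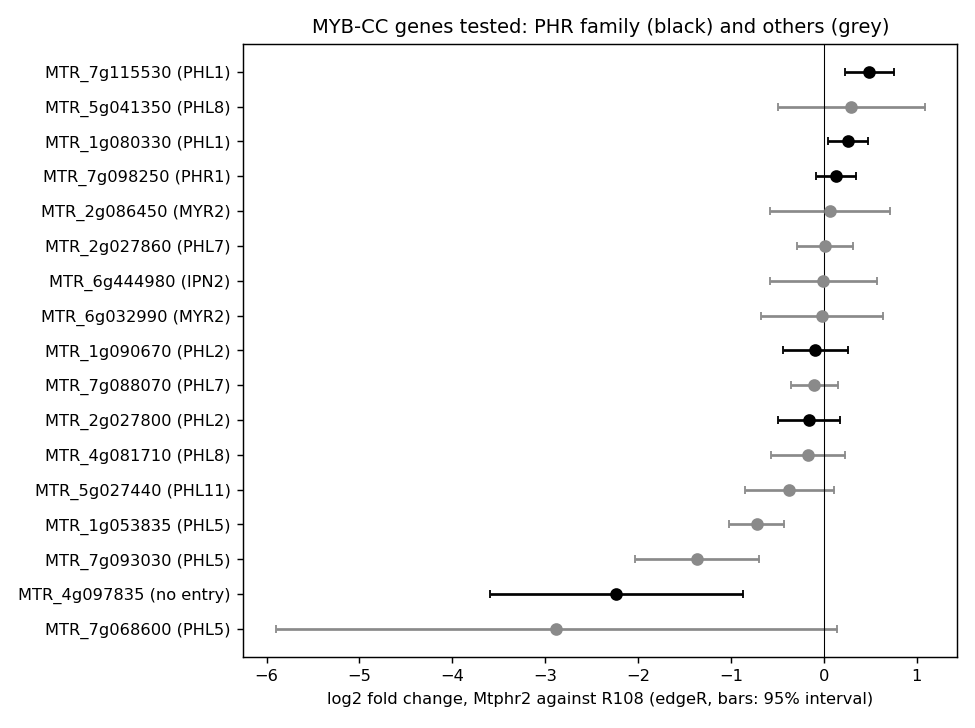
Fitted log2 fold change of Mtphr2 against R108 (horizontal axis) for the 17 tested loci with a MYB-CC domain, with 95% intervals from edgeR, PHR family genes in black and others in grey, and the closest Swiss-Prot entry in brackets. MTR_7g115530 is at the upper end at 0.49, and the lowest values belong to PHL5-like loci and MTR_4g097835.

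Profiles over the 6 libraries were compared by the root mean square difference of log2 CPM, each centred on the gene's mean, among tested loci with a description and at least 5 CPM on average. For MTR_7g098250 and 15273 candidates the median difference was 0.215, and the nearest were MTR_2g450210, a Fip1-like protein (0.024), MTR_1g014720, closest to the RNA demethylase ALKBH9B (0.024), and MTR_3g024330 (0.025). For MTR_7g115530 the nearest were an F-box protein gene, MTR_2g083840 (0.047), a CASP-like gene, MTR_1g073950 (0.061), and a protein phosphatase gene, MTR_1g014190 (0.061), beside a median of 0.332. For MTR_1g080330 they were MTR_4g008080, an RNA-binding KH domain protein (0.019), MTR_3g075050 (0.037) and MTR_4g067060 (0.039). The centred profiles of the 5 members with a MYB repeat had SDs of 0.108 to 0.294.

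MTR_2g027800 was nearest to MTR_1g008670 (0.036), MTR_8g009870 (0.037) and MTR_8g006950 (0.046), and MTR_1g090670 to MTR_2g005500 (0.037), MTR_2g014440 (0.041) and MTR_4g114105 (0.049). Among the members themselves the most alike profiles were those of MTR_7g098250 and MTR_1g080330 (0.13) and of both PHR1-LIKE 1 genes (0.149). The profile of MTR_4g097835 varied far more, with an SD of 1.28. Its nearest profiles were an S-norcoclaurine synthase-like gene, MTR_4g478140 (0.242), a short-chain dehydrogenase-like gene, MTR_6g053600 (0.289), and a GDSL lipase gene, MTR_2g044100 (0.302), where the median of all candidates was 1.19. MTR_4g478140 had 166, 131 and 56.1 CPM in R108 and 50.2, 29.1 and 26.6 CPM in Mtphr2.

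**Figure D4:**
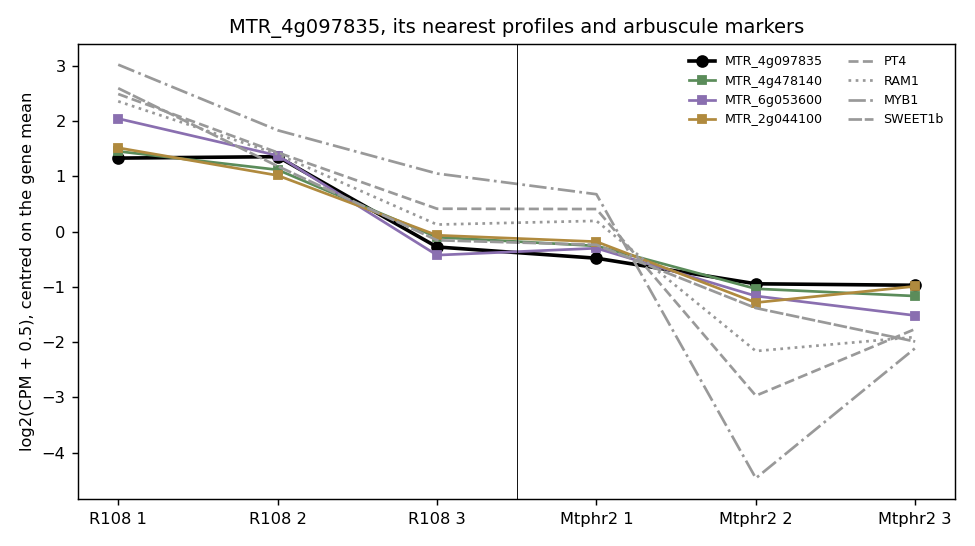
Centred log2(CPM + 0.5) (vertical axis) in each of the 6 libraries for MTR_4g097835 (black), the 3 genes of most similar profile (coloured) and 4 arbuscule markers (grey, broken lines); lines join the values of a gene and imply no order. All of them are highest in R108 replicates 1 and 2.

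Other parts of the phosphate pathway were read from 10 lists, set by annotation words, with 98 tested genes in all once each gene was counted once. By edgeR 0 of the 98 passed, limma-voom called 0, and 16 had an unadjusted p under 0.05 (6 higher, 10 lower). That is 16.3%, beside 16.4% of all tested loci. DESeq2 called 7 of the 98 (1 higher, 6 lower), or 7.14%, beside 5.73% of all tested loci. With the replicate term edgeR called 2, both lower, where it called 0.335% of all tested loci. The genotypes did not overlap in 23 of the 98, or 23.5%, beside 22.2% of all tested loci. The median log2 fold change was -0.026.

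Upstream of the PHR proteins, 8 inositol phosphate kinase genes were tested, which make the inositol phosphates that SPX proteins sense. Of these 1 had a positive and 7 a negative log2 fold change, with a median of -0.09 and 0 at an unadjusted p under 0.05. The ITPK1-like gene MTR_4g105690 averaged 15.7 ± 3.97 CPM in wild type and 11.5 ± 2.12 CPM in the mutant (edgeR adjusted p = 0.388). The IPK1-like gene MTR_1g022475, for the kinase that makes phytate, had 41.8 ± 7.55 and 34.8 ± 2.20 CPM (edgeR adjusted p = 0.415). SIZ1, a SUMO ligase that modifies PHR1 in Arabidopsis, had 2 genes. MTR_4g060510 averaged 69.1 ± 2.44 CPM in wild type and 79.8 ± 1.32 CPM in the mutant, and MTR_2g093730 averaged 84.3 ± 6.06 and 97.4 ± 3.35 CPM. Both had a log2 fold change of 0.21 with no overlap, and neither passed edgeR's test (adjusted p = 0.266 and 0.303).

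The SPX domain list had 10 tested genes, 4 with positive and 6 with negative log2 fold changes and a median of -0.03. It holds genes for SPX proteins, a kind that inhibits PHR, and also an SPX membrane protein gene. The SPX1-like gene MTR_0262s0060 had 47.0, 25.7 and 12.1 CPM in R108 and 8.78, 1.38 and 1.86 CPM in Mtphr2 (log2 fold change -2.82, edgeR adjusted p = 0.230, DESeq2 adjusted p = 0.00533). The SPX membrane protein gene MTR_7g086150 had 9.77 ± 7.69 and 1.72 ± 0.447 CPM, with overlap (edgeR adjusted p = 0.232, DESeq2 adjusted p = 0.0136). Its deposited length is only 198 bases, and its estimated counts were fractional. The SPX2-like gene MTR_3g107393, named after its values were seen, averaged 145 ± 88.9 CPM in wild type and 29.3 ± 25.9 CPM in the mutant. It did not pass edgeR's test (adjusted p = 0.254) or DESeq2's (adjusted p = 0.107), and it passed with the replicate number as a term in edgeR's model (adjusted p = 0.0426). The other 7 had log2 fold changes within ±0.2. The arbuscule markers were likewise highest in R108 replicates 1 and 2, and their part in these 3 differences was not tested.

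Among genes that PHR proteins control in other plants, the phosphate transporters of the PHT1 family had 9 tested members, 4 higher and 5 lower by fitted value, with a median log2 fold change of -0.42. The transporter gene MTR_3g082700 had 7.002, 3.44 and 2.44 CPM in R108 and 14.96, 7.69 and 7.76 CPM in Mtphr2 (edgeR adjusted p = 0.276). PT4 (MTR_1g028600), the transporter of the arbuscule membrane, had a log2 fold change of -2.47 (edgeR adjusted p = 0.284). PHO2, the ubiquitin-conjugating enzyme that marks phosphate transporters for breakdown, was represented by 3 tested genes closest to UBC24 of Arabidopsis, which is PHO2. NLA, a ubiquitin ligase sought with it in the gene descriptions and Swiss-Prot names, gave no further gene, and loci that carry it only as a KEGG name were not in the list. MTR_2g013650 averaged 97.3 ± 2.39 CPM in wild type and 145 ± 45.4 CPM in the mutant, and MTR_4g088835 averaged 161 ± 15.9 and 229 ± 60.1 CPM. Neither passed edgeR's test (adjusted p = 0.271 and 0.279), although genotypes did not overlap for either gene. The remaining gene, MTR_4g020620, named after its value was seen, had a log2 fold change of -0.41. PHF1 (MTR_1g090873), which helps transporters leave the endoplasmic reticulum, had 104 ± 53.2 and 65.9 ± 18.4 CPM (edgeR adjusted p = 0.467).

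The PHO1 exporter family had 6 tested genes, 5 with positive log2 fold changes, a median of 0.25 and 0 at an unadjusted p under 0.05. MTR_2g045780 averaged 16.8 ± 15.7 CPM in wild type and 53.6 ± 29.3 CPM in the mutant, and MTR_6g034015 averaged 2.62 ± 1.83 and 6.53 ± 3.46 CPM, both with overlap. Their estimated counts were fractional, at 631.91 and 85.09 in R108 replicate 1, and both are closest to PHO1-H9. They may therefore not be separate measurements, and whether they share reads was not tested. Purple acid phosphatases, which release phosphate from organic compounds, had 28 tested genes, 13 positive and 15 negative, with a median of -0.07. DESeq2 called 3 of the 28, where it called 5.73% of all tested loci. These were the lower MTR_8g107620 (adjusted p = 0.0144) and MTR_0188s0020 (adjusted p = 0.0194) and the higher MTR_3g074930 (adjusted p = 0.0380). MTR_4g037670 passed with the replicate term in edgeR's model (log2 fold change -2.34, adjusted p = 0.0426) and not without it (adjusted p = 0.263). It and MTR_3g074930 were named after their values were seen, and the deposited description of both is inactive purple acid phosphatase-like protein. MTR_8g107620 reached 7.33, 1.33 and 0.704 CPM in the wild type and at most 0.429 CPM in the mutant, and MTR_0188s0020 averaged 12.1 ± 6.77 and 2.79 ± 2.15 CPM. Lipid remodelling genes, which replace phospholipids when phosphate is scarce, had 16 tested members, 5 positive and 11 negative, with a median of -0.06 and 0 at an unadjusted p under 0.05. The galactolipid synthase gene MTR_6g091670 had 22.0 ± 0.701 and 24.6 ± 0.725 CPM (edgeR adjusted p = 0.411), and the phospholipase gene MTR_8g010690 had 1.06 ± 0.611 and 0.341 ± 0.207 CPM (edgeR adjusted p = 0.307). The list of other MYB-CC and related GARP factors, 12 of whose 18 loci hold the MYB-CC domain, had 15 tested genes with a median of -0.10, 6 positive and 9 negative. DESeq2 called 2 of these 15, both PHL5-like and given above, where it called 5.73% of all tested loci.

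**Figure D5:**
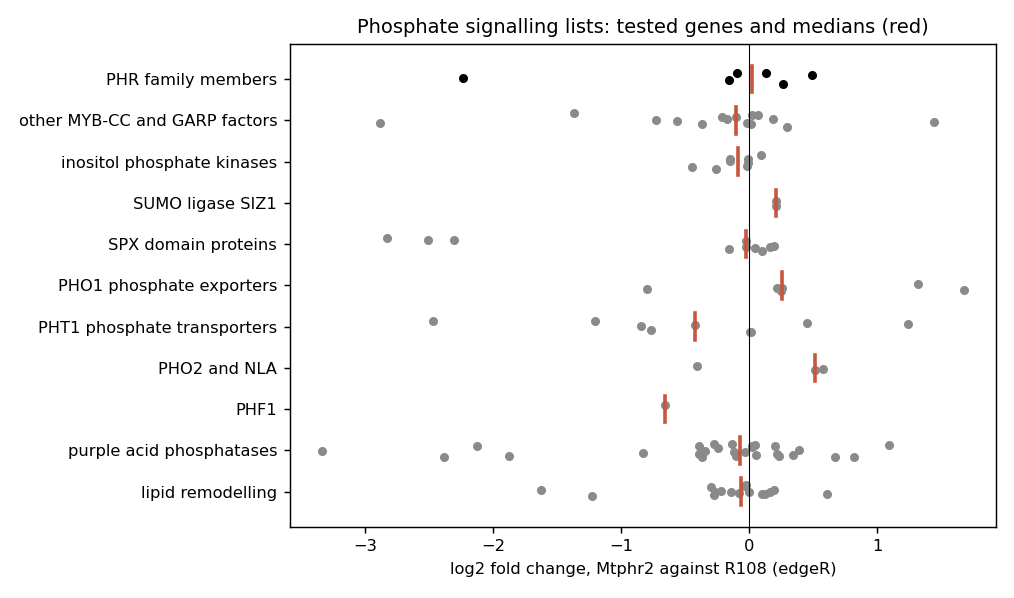
Fitted log2 fold change of Mtphr2 against R108 (horizontal axis) for each tested gene of the PHR family (black) and of 10 phosphate signalling lists (grey), with red bars for list medians. The member MTR_4g097835 lies at -2.23 and the other 5 between -0.16 and 0.49.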

How the data were processed

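Total RNA of mycorrhizal roots was extracted with TRIzol and sequenced with a NovaSeq 6000, followed by alignment to Medicago truncatula genome 4.0, per the labels' protocols. HISAT2, StringTie and DESeq2 are named in the submitters' processing notes. Neither their versions nor a counting program are stated there. Values in the authors' file are expected counts (estimated counts) per locus, and a further deposited column gives each locus length in bases. Counts were rounded to whole numbers, and those of all 6 members were whole as deposited.

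Tests used R 4.3.3, edgeR 4.0.16, DESeq2 1.42.0, limma 3.58.1 and Python 3.11.15 with pandas 2.3.3 and matplotlib 3.10.9. Loci were kept with filterByExpr (minimum count 10, minimum total 15), leaving 22663 of 54762, and libraries were scaled by TMM (factors 0.955 to 1.02). The main test was the quasi-likelihood test of edgeR, adjusted by Benjamini-Hochberg over all tested loci, with a threshold of 0.05. Standard errors of log2 fold changes were derived from the test's F statistic. Log2 CPM used a prior count of 2. The tests were tested on simulated data. Alternatives were DESeq2, limma-voom, other scalings and filters, a term for the replicate number (replicate block) and leaving out each library.

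The members, lists and rules were chosen with earlier results of these data known. Of each list, genes passing edgeR's test are named, or else the 2 with the smallest p. For each member the 3 nearest profiles are named. After genotype means were removed, same-numbered R108 and Mtphr2 libraries had correlations across genes of 0.377, 0.151 and 0.168, all above 0.1. The replicate number was therefore added as a term in an alternative fit, and the main test left it out. Pairs of different number ranged from -0.310 to 0.187, the highest being R108 replicate 3 with Mtphr2 replicate 2. That value was above those of same-numbered replicates 2 and 3, so the numbers do not establish pairing. Pairs of libraries within a genotype had a chi-square per degree of freedom of 25.1 to 52.2, where duplicates of 1 library would be near 1. Coding lengths, promoters and protein sequences were not used here, and the deposited locus length took the place of a coding length.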

Additional observations from a re-analysis of the deposited data

How the results depend on the processing

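Log2 fold changes of the 6 members kept their sign in all 83 pairs of a member and an alternative fit. These came from 14 alternative fits, of which MTR_4g097835 entered 13. Of the 83 pairs, 81 stayed on the same side of the threshold. DESeq2 alone moved MTR_7g115530 (log2 fold change 0.47) and MTR_4g097835 (-2.26) past it. The number of members called was 2 by DESeq2 and 0 in every other fit. MTR_4g097835 fell out under a minimum mean of 10 CPM. Loci called, 18 by edgeR as described above, numbered 1298 by DESeq2, 31 by limma-voom, 34 with no filter on low counts, 9 under that minimum mean and 21 with upper-quartile factors, a scaling chosen after seeing the data. Leaving out 1 library gave 7 to 44 loci and 0 members. The replicate block called 76 loci and 0 members, and so changed no member's call. Its adjusted p was 0.0794 for MTR_7g115530 and 0.107 for MTR_4g097835. Of 98 pathway genes, DESeq2 called 7 (7.14%, beside 5.73% of all tested loci). The replicate block called 2, where it called 0.335% of all tested loci, and each other fit called 0. The median log2 fold change of all loci moved between 0.002 and 0.039 with the scaling. Counts of 15 to 109 limit the precision for MTR_4g097835, whose 95% interval in log2 is -3.59 to -0.87. The causes were not tested.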
